A study of Mus musculus with 2 samples.

Results

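The measurements described here are those of 10 transcription factor genes that are known from chondrocyte hypertrophy: Runx1, Runx2 and Runx3, their binding partner Cbfb, Mef2a, Mef2c and Mef2d of the Mef2 family, and Sp7, Dlx5 and Foxa2. A probe was assigned to a gene when the RefSeq transcript it is named for belongs to that gene, and the brightest probe represents the gene. These are 10 of the 20660 mouse genes that could be named on the array, and they are covered by 16 probes, 2 for each of 6 genes and 1 for each of 4 genes. RNA came from primary articular chondrocytes of 6-day-old C57BL/6J mice with no transgene or treatment named, grown for 48 h in fibronectin-coated silicon chambers, and was taken either before loading or 24 h after 30 min of cyclic stretching by 10% at 0.5 Hz. Each time point is 1 array, so that no difference has a replicate check and no test was run. The comparison asks how the RNA of these factors stood 24 h after the strain. An unloaded culture at 24 h was not analysed here, so the strain and the 24 h in culture that followed cannot be told apart. The number of mice behind each RNA is not given in the sources used here.

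Runx proteins bind DNA through the Runt domain, and Cbfb, which does not bind DNA itself, joins them and strengthens that binding. Runx2 and Runx3 act in the growth plate, where they are needed for chondrocytes to become hypertrophic, and Runx2 is also the master regulator of osteoblasts, while Runx1 is active earlier in chondrogenesis. Mef2c and Mef2d promote hypertrophy and are held back by class II histone deacetylases such as Hdac4, Sp7 (osterix) acts downstream of Runx2, Dlx5 is a homeobox factor that favours hypertrophy, and Foxa2 is a forkhead factor that acts in the same step. Known target genes include Col10a1, the collagen of hypertrophic cartilage, and Mmp13, a collagenase.

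The sequences below are shown because members of these families are known to bind the promoters of their own genes and of the target genes whose values follow. Promoters of RefSeq, on the build GRCm38.p6, reach from 250 bases before the start of transcription to 50 bases after it, and 8 of the 10 genes had an entry, Sp7 and Dlx5 being the others. TGTGGT, the core of the Runx site, was searched on both strands, and capitals mark its reverse complement ACCACA. In each Runx gene 1 promoter held the motif in tandem, with 2 bases between the copies, and 30 bases around it are given 5′ to 3′ on the strand of the gene.
Runx1, chr16:92826025-92826054, minus strand: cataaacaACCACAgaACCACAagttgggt
Runx2, chr17:44814583-44814612, minus strand: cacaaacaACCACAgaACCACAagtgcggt
Runx3, chr4:135120503-135120532, plus strand: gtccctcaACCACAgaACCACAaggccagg
Counted from the start of transcription, the tandem began at base 29 of the transcript of Runx1, at base 24 of that of Runx2 and at base -134 of Runx3. All 3 stretches shared the run of 18 bases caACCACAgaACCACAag, and 27 of 30 bases were the same in Runx1 and Runx2, 21 in Runx2 and Runx3 and 19 in Runx1 and Runx3. The run was found in 4 promoters of 32851, and the fourth is that of Gm16225. A pair of motifs on the same strand with this spacing were in 7 promoters, 0.0213% of all. The tandem was looked for after the Runx promoters had been read, so its rarity is a description and not a test. The motif itself was common: it was in 16.8% of all promoters. Of the 14 promoters listed for the 10 genes it was in 3, the same Runx promoters that held the tandem. Of the 26 listed for their target genes, which covered 19 of the 25 described below, it was in 7.

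The MEF2 site, an A and T rich element known by that name, was in 3.19% of all promoters and, among the 14, only in that of Mef2a, where it began at base -2. Capitals mark this site in Mef2a, and the Runx motif in the promoters of Mmp13 and Spp1 (osteopontin), which are given as target genes that held it.
Mef2a, chr7:67372841-67372870, minus strand: ggcctgactcCTAAAAATAGccccggtgtg
Mmp13, chr9:7272384-7272413, plus strand: attctgccacaaACCACActtaggaagaaa
Spp1, chr5:104434971-104435000, plus strand: tttttttttttaACCACAaaaccagaggag
The motif began at base -118 of Mmp13 and at base -128 of Spp1. No promoter window listed for Col10a1, Ibsp, Ihh or Alpl held these letters, which says nothing about binding elsewhere. Binding was not measured in these samples.

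The arrays were alike in depth. Well above background were 59.14% of the 59305 non-control spots on the first array and 57.66% on the second, the 75th percentile lay at an intensity of 466.37 and 466.15, and no spot was saturated. Values are the intensity of a spot after background subtraction, and the log2 ratio is 24 h minus before, after each array was set relative to its 75th percentile. The within-array error given with a log2 ratio combines the scanner software's error of the spots on both arrays and covers neither culture nor array. It is smaller where a probe has several spots, which were averaged. It had a median of 0.20 over the 14222 genes well above background on both arrays. Among these genes, 2-fold was passed upwards by 95 (0.668%) and downwards by 260 (1.83%) at 24 h. With scaling to the median of each array the numbers were 130 and 205, and with scaling to the spike-in controls 124 and 208.

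All 10 genes, and all 16 of their probes, were well above background before and after loading. None of the 10 differed by more than 2-fold, against 2.5% of the detected genes. A single gene, Sp7, passed 1.5-fold, which is 10% of the set, against 9.49% of the detected genes in either direction. A share this near the background is no result about the set. A total of 6 genes were below and 4 above 0, against 52.4% of detected genes below 0. The median log2 ratio of the 10 was -0.08, and that of all detected genes was -0.01 with quartiles of -0.19 and 0.16. The ratio was larger than its within-array error in 4 genes, Sp7, Runx3 and Dlx5 on the lower side and Runx1 on the higher, and larger than 2 such errors in Sp7 and Runx3. Of all detected genes, 43.4% passed 1 such error and 17% passed 2, so these counts do not set the 10 apart. In bulk RNA, fewer cells of a type and less RNA per cell cannot be told apart.

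**Figure D1:**
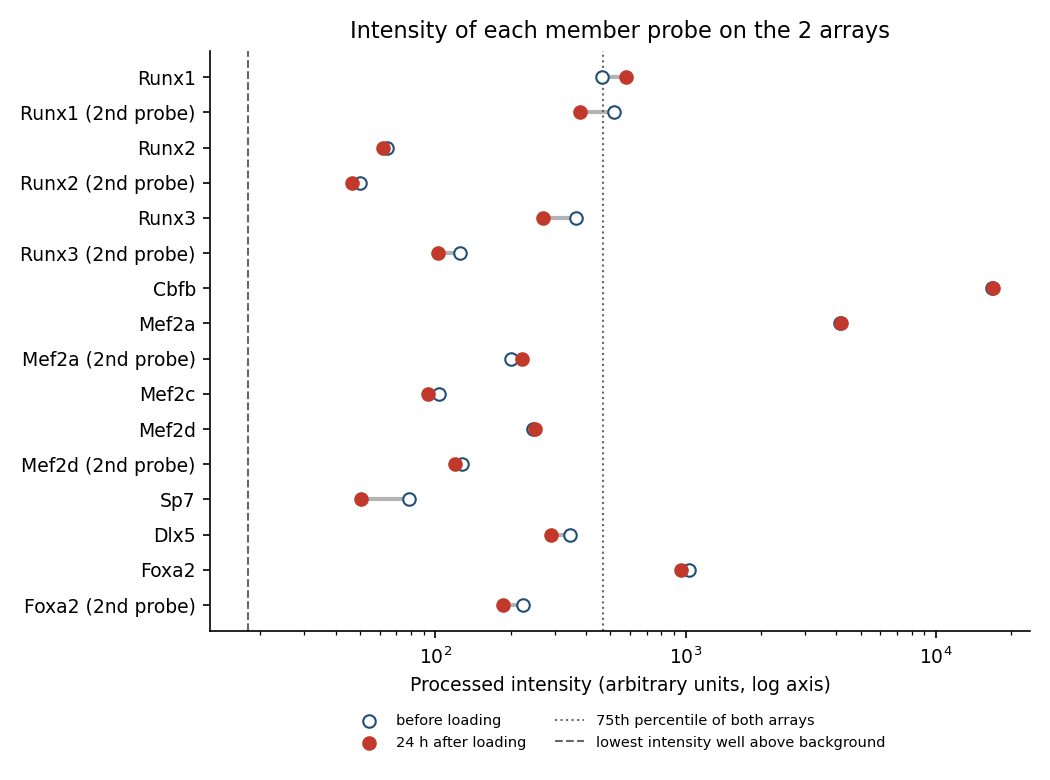
Intensity after background subtraction (log axis) of the 16 probes of the 10 genes on the array before loading (open) and 24 h after it (filled), with 1 array per time point and no replicate error. Vertical lines mark the 75th percentile (dotted) and the lowest intensity well above background (dashed). The points of Sp7 lie farthest apart, at 78.8 before loading and 50.5 at 24 h, while those of Cbfb and of the brightest probe of Mef2a lie on each other. Heights of different genes come from different probes and cannot be compared.

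Among the Runx genes, Runx2 differed little. Its brighter probe read 64.1 before loading and 61.8 at 24 h, which gave a log2 ratio of -0.05 and an error of 0.26. The second probe of Runx2 read 50.1 and 46.4, a log2 ratio of -0.11 with an error of 0.29. Both probes of Runx2 were thus slightly lower at 24 h, by less than the error of either. The sign of the brighter one turned when the arrays were scaled by their medians or by the spike-in controls, or normalized by quantiles or cyclic loess, with a range over all settings from -0.15 to 0.05.

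Runx3 was lower at 24 h on both of its probes. The brighter probe read 365 before loading and 270.5 at 24 h, a log2 ratio of -0.43 with an error of 0.21. The other probe read 125.8 and 103.0, a log2 ratio of -0.29 with an error of 0.22. The probes of Runx3 differed from each other by 0.14, below the median range of 0.19 among the 3635 genes with more than 1 detected probe. Under the other settings tried, the log2 ratio of the brighter probe lay between -0.44 and -0.33.

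The probes of Runx1 pointed in opposite directions. The probe for transcript NM_009821 read 463 before loading and 576 at 24 h, a log2 ratio of 0.32 with an error of 0.20. The probe for transcript NM_001111022 read 517 before loading and 381 at 24 h, a log2 ratio of -0.44 with the same error. The first was the brighter probe by the mean of both arrays and the second on the array before loading, so the rule by which a gene takes its brightest probe gives Runx1 either sign. The gap between them was 0.76 with an error of 0.29, and their mean was -0.063. Of the 3635 genes with more than 1 detected probe, 5.47% had a gap at least as wide. Placed among all detected genes, the first probe had 87.5% of the log2 ratios below it and the second 9.33%. The first kept a positive and the second a negative sign under every scaling and background correction tried. Each transcript accession names the sequence a probe was matched to, and which of the transcripts a probe detects in these cells was not tested.

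Cbfb, the partner of all 3 Runx proteins, differed by far less than its error. It read 16805 before loading and 16839 at 24 h, a log2 ratio of 0.0036 with an error of 0.20. Across the settings tried the log2 ratio of Cbfb lay between -0.01 and 0.10.

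**Figure D2:**
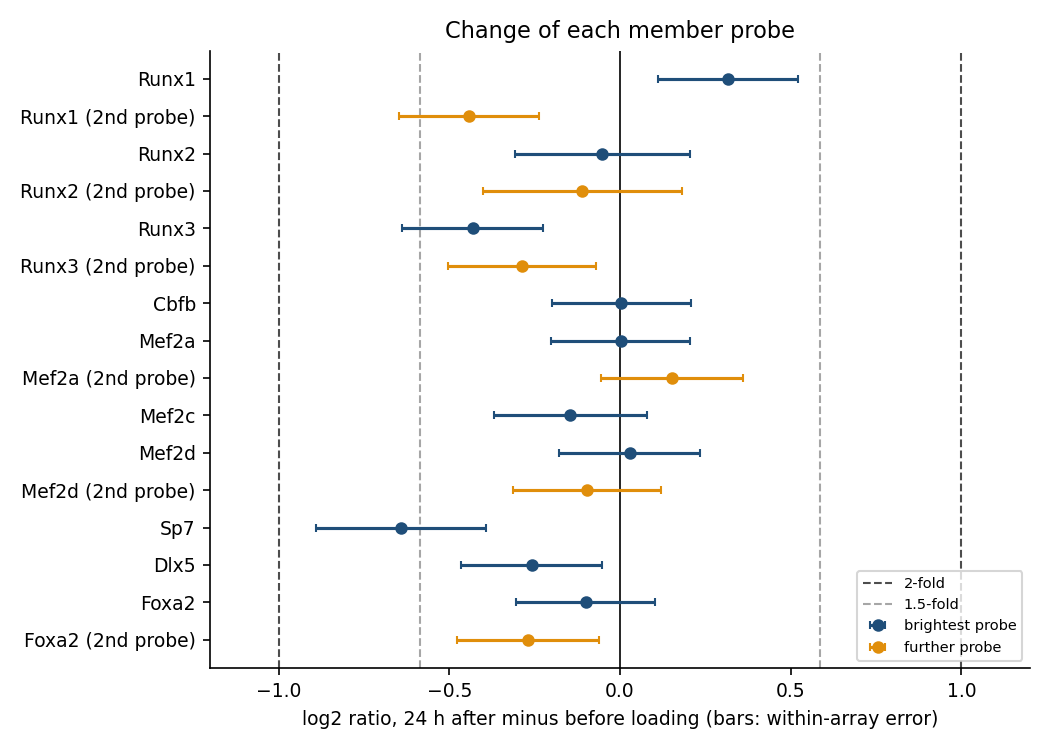
Log2 ratio of 24 h after over before loading for all 16 probes, with bars of 1 within-array error of the scanner software, which is no replicate error, with the brightest probe of each gene in blue and second probes in orange, and dashed lines at 1.5-fold and 2-fold. The probes of Runx1 lie on either side of 0, at 0.32 and -0.44, and in the other genes with a second probe the gap between probes is 0.17 or less.

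The Mef2 genes lay close to 0. Mef2a read 4159 before loading and 4162 at 24 h, a log2 ratio of 0.0015 with an error of 0.20, and its second probe read 200.3 and 222.6, a log2 ratio of 0.15 with an error of 0.21. Mef2d read 245.8 and 250.5, a log2 ratio of 0.03 with an error of 0.21, and its second probe 128.1 and 119.8, a log2 ratio of -0.10 with an error of 0.22. Mef2c, the member best known in hypertrophy, read 103.3 before loading and 93.3 at 24 h, a log2 ratio of -0.15 with an error of 0.22. No Mef2 probe of these 5 differed by more than its within-array error. Across the settings tried, Mef2c stayed below 0, between -0.15 and -0.05, while Mef2d ranged from -0.03 to 0.13.

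Sp7, the zinc finger factor downstream of Runx2 in bone and hypertrophic cartilage, had the lowest ratio of the set. It read 78.8 before loading and 50.5 at 24 h, a log2 ratio of -0.64 with an error of 0.25, which is 1.56-fold lower. Only 4.80% of the detected genes had a lower log2 ratio. Sp7 has a single probe, which read well below the 75th percentile: of the 1237 genes whose mean level is within 0.5 log2 units of it, 12.7% were more than 1.5-fold lower and 7.76% more than 1.5-fold higher, against 5.84% and 3.66% of all detected genes. The ratio stayed negative under every setting but was inside 1.5-fold under 5 of them, at -0.54 with median scaling, -0.55 with spike-in scaling, -0.56 with quantile normalization, -0.57 with cyclic loess and -0.41 with normexp background correction.

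Dlx5 read 346.8 before loading and 289.8 at 24 h, a log2 ratio of -0.26 with an error of 0.21, and it stayed between -0.26 and -0.16 across settings. Foxa2 read 1030.2 before loading and 960.2 at 24 h, a log2 ratio of -0.10 with an error of 0.20. The second probe of Foxa2 read 224.4 and 186.1, a log2 ratio of -0.27 with an error of 0.21. Both probes of Foxa2 were lower at 24 h. Within 100 µm of its brighter spot, 4 neighbouring spots were more than 2-fold lower and 1 higher, the most changed neighbours in one direction at any spot of the 16 probes. Whether that area of the array bears on the reading was not tested.

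**Figure D3:**
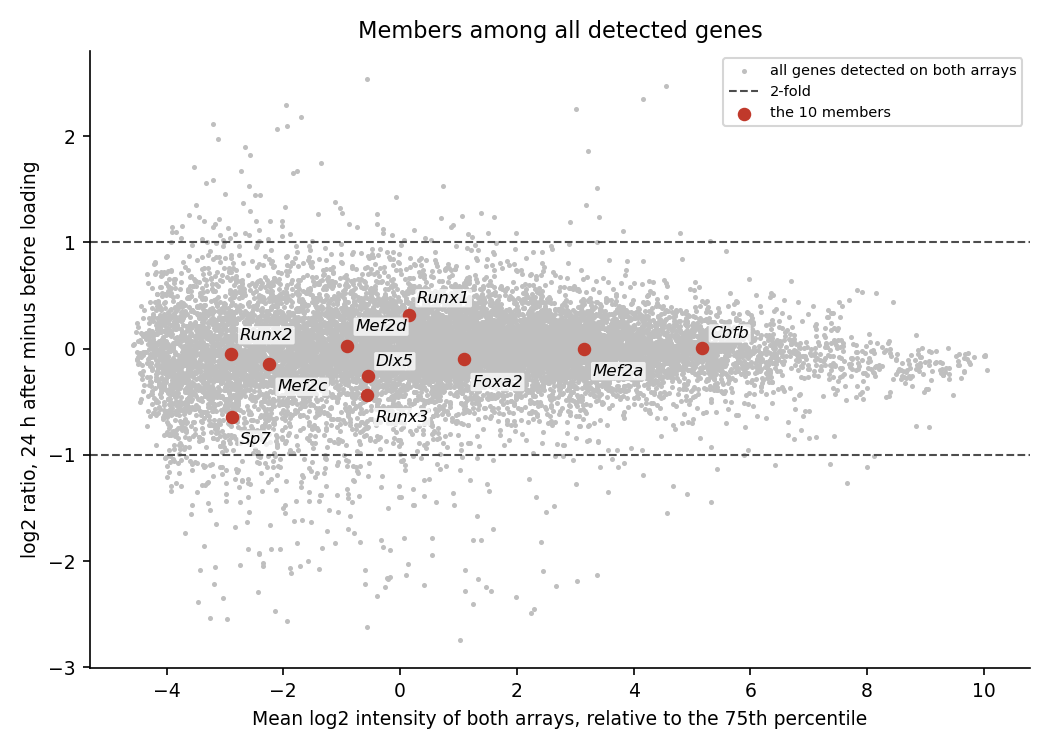
Log2 ratio of 24 h after over before loading against the mean log2 level relative to the 75th percentile, for the 14222 genes detected on both arrays (grey) and the 10 transcription factors (coloured, named), with dashed lines at 2-fold. All 10 lie inside the lines, and 3 of them, Cbfb, Mef2a and Foxa2, lie above the 75th percentile on both arrays.

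The genes that act on these factors or beside them were described from a list of 60, which holds class II histone deacetylases and their kinases, relatives of each family, corepressors, and other cartilage transcription factors. Of these, 53 were well above background on both arrays, 23 above and 30 below 0, with a median log2 ratio of -0.03. None of the 53 passed 2-fold. Dlx6, on the list and well above background before loading only, was at least 2.32-fold lower at 24 h. The within-array error of its log2 ratio was 0.60. Of the 14975 genes well above background on 1 array or both, 699 passed 2-fold, against 355 of the 14222 on both. Among the 53, 4 were more than 1.5-fold lower (7.55%) and 1 was more than 1.5-fold higher (1.89%), against 5.84% and 3.66% of all detected genes. The 4 were Mef2b (-0.96), Sik2 (-0.80), Lef1 (-0.66) and Hdac4 (-0.59), and the 1 was Hey1 (0.61), a repressor downstream of Notch signalling. Except for Hdac4, which the rule for named genes holds, these were named after their values were seen.

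Hdac4, which keeps Mef2c and Runx2 inactive in prehypertrophic cartilage, read 322 before loading and 214.5 at 24 h, a log2 ratio of -0.59 with an error of 0.21. This is at the border of 1.5-fold, and the ratio lay between -0.59 and -0.42 across settings. Other class II enzymes were near 0, with log2 ratios of 0.08 in Hdac5 and 0.10 in Hdac7. Hdac9 read 31.8 before loading and 21.0 at 24 h, where it was not well above background. That is 1.52-fold lower, with an error of 0.45 on the log2 scale. Sik2, a kinase that controls where class II deacetylases reside, read 708 before loading and 406 at 24 h, and 9 of its neighbouring spots were more than 2-fold lower with a median log2 ratio of -0.38 around it. The second probe of Sik2, with no changed spot around it, read 47.3 and 32.7, a log2 ratio of -0.53 with an error of 0.30. Its relative Sik3 had a log2 ratio of 0.11.

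Mef2b, the family member not among the 10, read 81.9 before loading and 42.2 at 24 h, with an error of 0.27. Lef1, the nuclear partner of β-catenin in Wnt signalling, read 1006 and 636. Sox9, the master transcription factor of chondrocytes and an opponent of Runx2, read 10005 before loading and 11614 at 24 h. Its log2 ratio was 0.22 with an error of 0.07. Sox9 was read by several averaged spots on each array, hence the smaller error than that of probes with 1 spot. Its partners Sox5 and Sox6 stood at -0.24 and -0.04. Other factors known to restrain Runx2 were spread on both sides, with log2 ratios of 0.16 in Twist1, -0.20 in Twist2, -0.27 in Zfp521, -0.24 in Nkx3-2 and 0.26 in Yap1.

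Known target genes of the 10 factors were described from a list of 25. Of the 24 with a probe, 21 were well above background on both arrays, with 11 above and 10 below 0 and a median log2 ratio of 0.01. More than 2-fold lower were 3 of the 21 (14.3%, against 1.83% of detected genes), and none was more than 2-fold higher. Ibsp, the bone sialoprotein gene, read 258.7 before loading and 61.9 at 24 h, a log2 ratio of -2.06 with an error of 0.23. Col10a1 read 18909.7 and 6485, a log2 ratio of -1.54 with an error of 0.20. Ihh, the hedgehog ligand of prehypertrophic cells, read 585.6 and 237.1, a log2 ratio of -1.30 with an error of 0.21. Alpl, the alkaline phosphatase of mineralising cells, was chosen after its value was seen, and had a log2 ratio of -0.89.

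The rest of the targets lay on both sides of 0. Mmp13 read 617 before loading and 867 at 24 h, a log2 ratio of 0.49 with an error of 0.20. Mmp14, a membrane collagenase, stood at 0.58 and the osteocalcin gene Bglap2 at 0.44, while Spp1 stood at -0.48, Enpp1 at -0.53, Panx3 at -0.28 and Phex at -0.34. Vegfa, Pth1r, Fgfr3 and Col1a1 had log2 ratios of -0.19, 0.06, 0.21 and -0.04. Tnfsf11, the RANK ligand gene, read 30.6 before loading and was not well above background at 24 h. It was at least 1.72-fold lower, with an error of 0.50 on the log2 scale. Neither array read Mmp9 or Dmp1 well above background. The list was chosen with results of these arrays known, so its counts are a description.

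**Figure D4:**
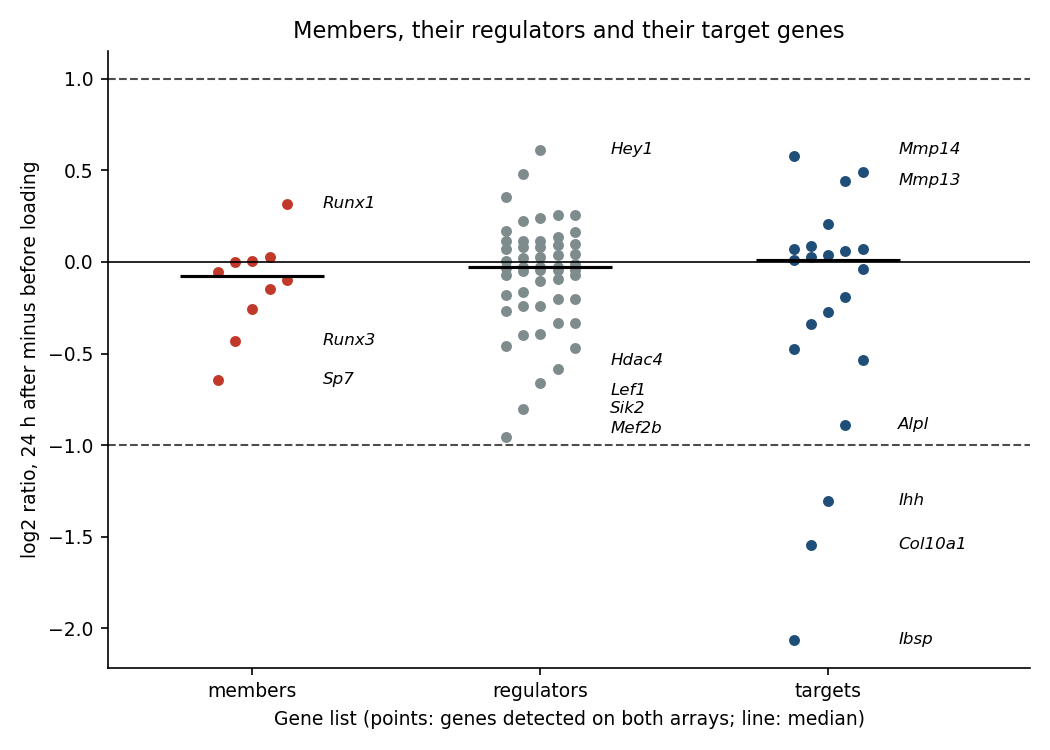
Log2 ratio of 24 h after over before loading for the 10 transcription factors, 53 genes that act on or beside them and 21 of their target genes, each point 1 gene detected on both arrays, with the median as a line and dashed lines at 2-fold. The medians are -0.08, -0.03 and 0.01, and Ibsp, Col10a1 and Ihh are the genes below the lower dashed line.

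The cells were checked against markers. All 10 chondrocyte markers were well above background on both arrays, among them Col2a1 and Acan, and their summed intensity, most of it from a few bright probes, differed by -0.01 on the log2 scale. Single chondrocyte markers went both ways, from -0.82 in Col11a1 to 0.56 in Matn1, with Hapln1 at 0.40, Acan at 0.34, Col2a1 at -0.07 and a median of 0.14. Of 6 osteoblast markers, cells that also use Runx2 and Sp7, 3 were detected on both arrays, neither array read Dmp1 well above background, and the summed intensity of the 5 with a probe differed by -0.03. Of 7 macrophage and blood markers, cells that use Runx1, Runx3 and Mef2c, 5 were detected. The sum, most of it from Itgam, differed by -0.04. Ptprc (CD45) read 20.9 and 46.1, a log2 ratio of 1.14 with an error of 0.35, with 6 of its neighbouring spots more than 2-fold higher. Cd3e stood at 0.15, Adgre1 at 0.09, Csf1r at -0.15 and Itgam at -0.04, and Spi1 was not well above background. Of 7 skeletal muscle markers, where Mef2 factors also act, 4 were detected, with log2 ratios of 0.64 in Myh3, -0.13 in Myog, -0.31 in Acta1 and -0.78 in Tnnt3, Myod1, Ckm and Des were not, and the sum differed by -0.28. Of the endothelial markers Cdh5 and Tek were not well above background, Pecam1 stood at 0.23, and Kdr, which gave nearly all of the summed intensity, at -0.05. Of 3 tenocyte markers Scx stood at -0.44 and Mkx at 0.21, Tnmd was well above background at 24 h only, and the sum differed by -0.35. Of 4 erythroid markers only Hba-a1 was detected, at -0.12. Of 4 epithelial markers, cells in which Foxa2 also acts, Krt18 was detected with a log2 ratio of -0.71, Epcam, Cdh1 and Krt8 were not well above background, and the sum read 321.1 and 212.5, a difference of -0.60. The part of other cell types in the values of the 10 genes was not tested.

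**Figure D5:**
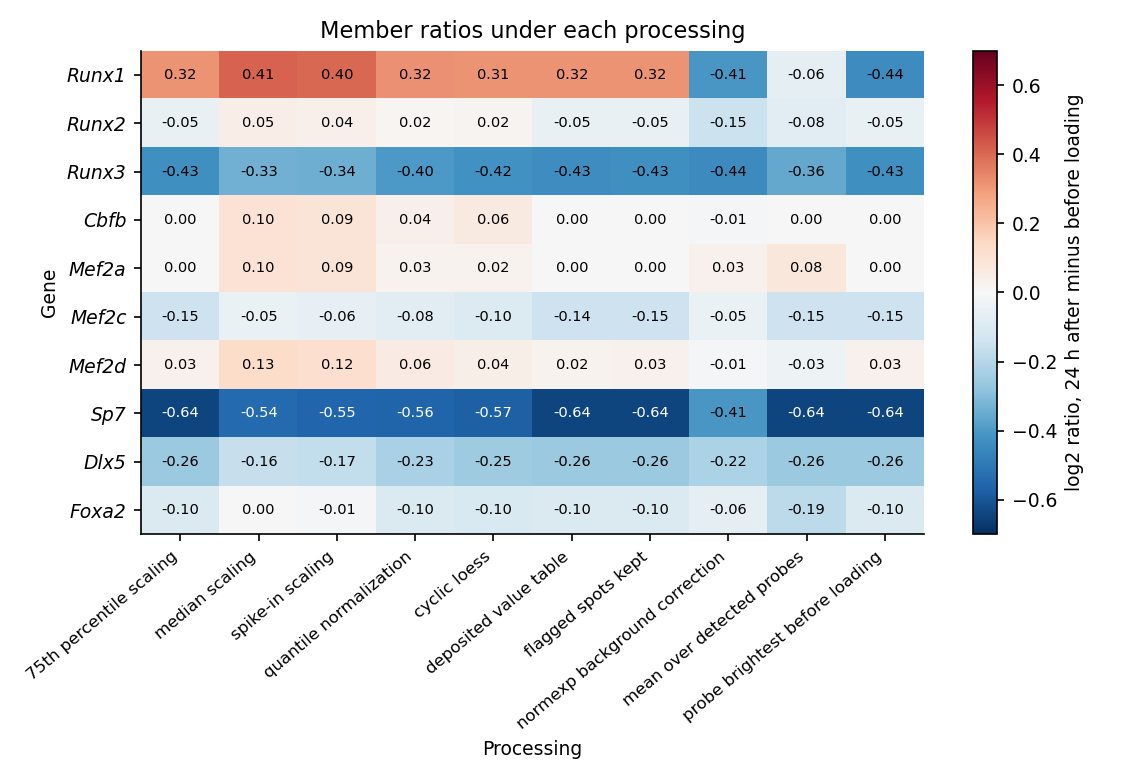
Log2 ratio of each of the 10 transcription factors (rows) under each way of processing the same arrays (columns), with the value printed in the cell and the colour running from lower (blue) to higher (red) at 24 h. Sp7, Runx3, Dlx5, Mef2c and Foxa2 are below 0 in every column, Foxa2 only just with median scaling (-0.003). Runx1 changes sign in 3 columns, to -0.41, -0.063 and -0.44.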

How the data were processed

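Total RNA of mouse primary chondrocytes was hybridised to 2 one-colour Agilent arrays on 1 slide, per the files' headers. The authors deposited the processed intensity of each spot from Agilent Feature Extraction 10.10.1.1, background subtracted and not normalized between arrays. The value table, also deposited, gives these intensities in rounded form.

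Control spots and outlier spots (141 and 138) were left out and spots of a probe averaged. The 75th percentile of each array was subtracted from its log2 intensities. Probes were named by RefSeq accession without version (27235 of 55678), for names only. A gene is detected when both arrays read its brightest probe well above background. With 1 array per time point there was no test, and precision is limited by the number of arrays. The call is a 2-fold difference, and "at least" marks a fold against the higher of the dim probe and the lowest signal well above background. Such a fold leaves out the within-array error, so it is no firm bound. Genes were not ranked by level, since levels come from different probes. Brightness served only to choose a gene's probe and genes near the level of Sp7, and sums over markers weigh bright probes most.

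The 10 genes and the lists were chosen with earlier results of these data known. Text names the 10 genes, Hdac4, Sox9, Col10a1, Mmp13 and list genes past 2-fold. Other genes were named after their values were seen, and the tandem motif and the comparison with genes near the level of Sp7 were added likewise. Alternatives numbered 12 planned and 1 added. Limma 3.58.1 in R 4.3.3 and Python 3.11.15 with pandas 2.3.3 were used. On simulated data for 24 h against before loading, 2-fold was passed by 100 of 100 genes changed by 2 (log2), 0 of 100 changed by 0.5 and 0 of 14022 unchanged, 14222 genes in all. The simulated noise was small, did not grow for dim probes and left out differences between cultures. These counts therefore check the calculation and give no error rate for the real arrays.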

Additional observations from a re-analysis of the deposited data

How the results depend on the processing

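No paired analysis was possible because there was 1 array per time point, and for the same reason no array could be left out. Several alternatives could move a value only little. Median and spike-in scaling each shift all genes by the same amount, which took Cbfb from 0.0036 to 0.10 and 0.09. The deposited table holds the same intensities rounded, and a gene with 1 probe keeps its value under the other rules for choosing or averaging probes. Of 90 values of the 10 genes under alternatives, 87 moved by less than the within-array error, which for these reasons is no measure of robustness. The 3 others were all of Runx1, at -0.063 with the mean over its probes, -0.41 with normexp background correction and -0.44 with the probe brightest before loading (the alternative added after seeing the data). Under normexp the NM_001111022 probe was the brighter, and the NM_009821 probe stood at 0.27. None of the 10 passed 2-fold under any setting, and 1 passed at 1.5-fold. Signs also turned in Runx2 under 4 scalings, in Cbfb under normexp and in Mef2d under normexp and the mean over probes, and Cbfb and Mef2a were 0 in the deposited table. Scaling by the medians put the median of the 10 at 0.02 and scaling to the spike-in controls at 0.01, when that of all detected genes was 0.08 and 0.07. The detected genes past 2-fold, 355 in all, numbered 155 with normexp, 124 when 2-fold had to be passed by more than 2 errors, 699 when 1 array well above background was enough, 1475 without a filter on dim probes and 1350 at 1.5-fold. Among 63 values of 7 other genes, 4 differed by more than the error and none changed direction. Of these, 2 are Sox9, higher with median and spike-in scaling. Those scalings raised all genes by the same amount, and Sox9 is counted because its error is 0.07. With normexp Ibsp stood at -1.36, still past 2-fold, and Ptprc at 0.40, inside it. Normexp was run on the median spot signal, the raw signal used here. Dim probes limit what can be read: the within-array error was 0.29 for the second probe of Runx2, against 0.20 for Cbfb.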

Other observations

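Relatives of the Dlx and Foxa factors, chosen after their values were seen, were read from the same arrays. Dlx6, which is on the list of regulators and lies beside Dlx5 in the genome, read 41.3 before loading. It was not well above background at 24 h, where it read 12.4. It was thus at least 2.32-fold lower, with an error of 0.60 on the log2 scale. Dlx2 had a log2 ratio of -0.33 and Dlx3 of 0.08, and neither array read Dlx1 or Foxa1 well above background. Foxa3 had a log2 ratio of 0.17. Runx1t1, a corepressor known as a fusion partner of Runx1 in leukaemia, stood at 0.04.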
